A study of Mus musculus with 4 samples.

Results

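The SIX- and EYA-family genes encode interacting developmental regulators, and 9 of them, Six2 to Six6 and Eya1 to Eya4, were followed here by gene symbol in embryonic mouse eye. All 9 had a row in each library, among 18702 genes listed. Total RNA was sequenced from eye tissue of C57BL/6 embryos in 2 groups, Anp32b−/− embryos (knockout, KO, 2 libraries) and Anp32b+/+ embryos (wild type, WT, 2 libraries). Anp32b encodes an acidic nuclear phosphoprotein that binds histones, and the series title places its loss beside repression of PAX6. The sources used here give neither the allele nor the stage or sex of the embryos, nor how many were pooled for a library. They also do not state that replicate libraries stem from different embryos, so a p-value reflects only the scatter between these libraries, which may be technical.

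SIX-family proteins bind DNA through a homeodomain, and a neighbouring SIX-type domain binds partner proteins. EYA proteins do not bind DNA themselves but are recruited by SIX-family proteins as coactivators, and they also carry a phosphatase domain. Together with PAX6 and DACH proteins they form the network first described in the fly eye, where eyes absent and sine oculis are their relatives. In the mouse, Six3 and Six6 mark the eye field, the optic cup and part of the forebrain and work largely with Groucho-type (TLE) corepressors. The other genes of both families act in muscle precursors, mesenchyme and sensory placodes, with Six5 and Eya3 broadly expressed.

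Promoters of 4 genes are shown because these genes lie close on a chromosome in pairs that moved in opposite directions in the knockout, Six3 with Six2 and Six6 with Six4. The sequences are the 250 bases before the transcript start in RefSeq (GRCm38.p6), read 5′ to 3′ on the strand of the gene. The Six3 window lies inside the gene positions given below, which are from GENCODE. So do most of the Six4 window and the last bases of the Six2 window. Capitals mark a word shared by the Six3 and Six6 promoters (TTGATTGGCAG), a word shared by the Six2 and Six6 promoters (GTCTCCATGGCG), and matches on either strand to MEF3, the SIX-binding motif of muscle promoters, spelled TCAGGTTTC in full and TCAGGTT in its core.
Six3 (chr17:85620584-85620833, plus strand): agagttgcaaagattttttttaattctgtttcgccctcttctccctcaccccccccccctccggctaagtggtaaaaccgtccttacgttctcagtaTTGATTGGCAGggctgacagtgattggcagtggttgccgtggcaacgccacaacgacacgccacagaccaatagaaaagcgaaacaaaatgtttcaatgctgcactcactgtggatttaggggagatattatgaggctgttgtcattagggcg
Six6 (chr12:72939632-72939881, plus strand): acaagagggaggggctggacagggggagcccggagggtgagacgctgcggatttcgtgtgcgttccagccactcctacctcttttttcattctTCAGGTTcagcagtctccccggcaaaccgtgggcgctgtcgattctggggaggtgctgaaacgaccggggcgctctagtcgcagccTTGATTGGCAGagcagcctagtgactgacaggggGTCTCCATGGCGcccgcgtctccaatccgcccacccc
Six2 (chr17:85688255-85688504, minus strand): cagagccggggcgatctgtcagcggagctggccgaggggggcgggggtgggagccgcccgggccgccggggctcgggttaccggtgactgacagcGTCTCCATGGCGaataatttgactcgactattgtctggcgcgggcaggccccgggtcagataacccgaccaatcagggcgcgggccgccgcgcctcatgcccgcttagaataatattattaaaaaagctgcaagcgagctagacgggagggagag
Six4 (chr12:73113246-73113495, minus strand): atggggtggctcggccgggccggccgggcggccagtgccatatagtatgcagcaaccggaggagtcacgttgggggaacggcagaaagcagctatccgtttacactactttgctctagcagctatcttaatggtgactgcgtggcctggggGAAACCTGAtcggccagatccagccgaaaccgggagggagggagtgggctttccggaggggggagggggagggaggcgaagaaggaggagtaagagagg
Promoter entries were found for 7 of the 9 genes, and Eya1 and Eya2 had none in the table. Among the 250-base windows of these genes, the longest shared run was a C-rich stretch of 13 bases in Six3 and Eya4. The next longest was the word shared by Six2 and Six6, of 12 bases, which starts 155 bases before the transcript in Six2 and 37 bases before it in Six6. The word shared by Six3 and Six6, of 11 bases, starts 153 and 71 bases before the transcript in these genes. Runs of 11 bases were also shared by Six3 and Six4 (CCCCCCTCCGG, on opposite strands) and by Six2 and Six5 (GAGGGGGGCGG), and these are not capitalised. The word of Six2 and Six6 and the word of Six3 and Six6 were each present, on either strand, in 11 of 32851 promoter windows (0.033%). The table lists 2 start sites for Six4, and the window of the other site held neither MEF3 form. The full MEF3 letters were found in the printed Six4 window, 99 bases before the start on the opposite strand, and in 0.387% of all windows. The MEF3 core, which overlaps the full motif, was found in the printed Six4 and Six6 windows and in 3.49% of all windows. The words were picked after the promoters had been read, and a match of letters is not a bound site.

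The labels and the tissue were checked before the families were described. Anp32b stood at 94.53 and 92.67 FPKM (fragments per kilobase of transcript, scaled to the library's total) in the knockout libraries, against 163.18 and 179.12 FPKM in the wild-type libraries, or 54.7% of the wild-type mean. Such gene-level values do not tell which exons supplied the reads left in the knockout. Low values placed the depth at 17820000 to 18020000 fragments per library. Markers of retina, lens, skeletal muscle, periocular mesenchyme and surface epithelium were all above 0 in the knockout and the wild type. Of 13887 genes tested (mean level 1 FPKM or more), 54.6% were called at a limma adjusted p under 0.05, 33.5% higher and 21.1% lower in the knockout, and in 77.9% the libraries of the groups did not overlap, 45.6% with the knockout above and 32.4% with it below.

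The optic genes Six3 and Six6 fell in the Anp32b−/− eye while most other genes of the families rose. Of the 9 genes, 6 were called higher (Six2, Six4, Six5, Eya1, Eya2 and Eya4), 2 lower (Six3 and Six6) and 1 (Eya3) was not called, against a background of 54.6% of all genes called. The libraries of the groups did not overlap in the same 8 genes, 6 higher and 2 lower in the knockout, against 45.6% and 32.4% of all genes. All 9 passed the filter on low values, but Six4 did so only through the knockout libraries. The mean log2 fold change was −0.47 for Six3 and Six6 and 0.51 for the other 7 genes, a difference of −0.98. In single libraries, the mean log2(FPKM + 1) of Six3 and Six6 exceeded that of the other 7 genes by 2.15 and 2.14 in the knockout and by 3.07 and 3.19 in the wild type. Members are not replicates, so this difference is given without a test. The median log2 fold change was 0.50 over the 9 genes and 0.04 over all genes tested.

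**Figure D1:**
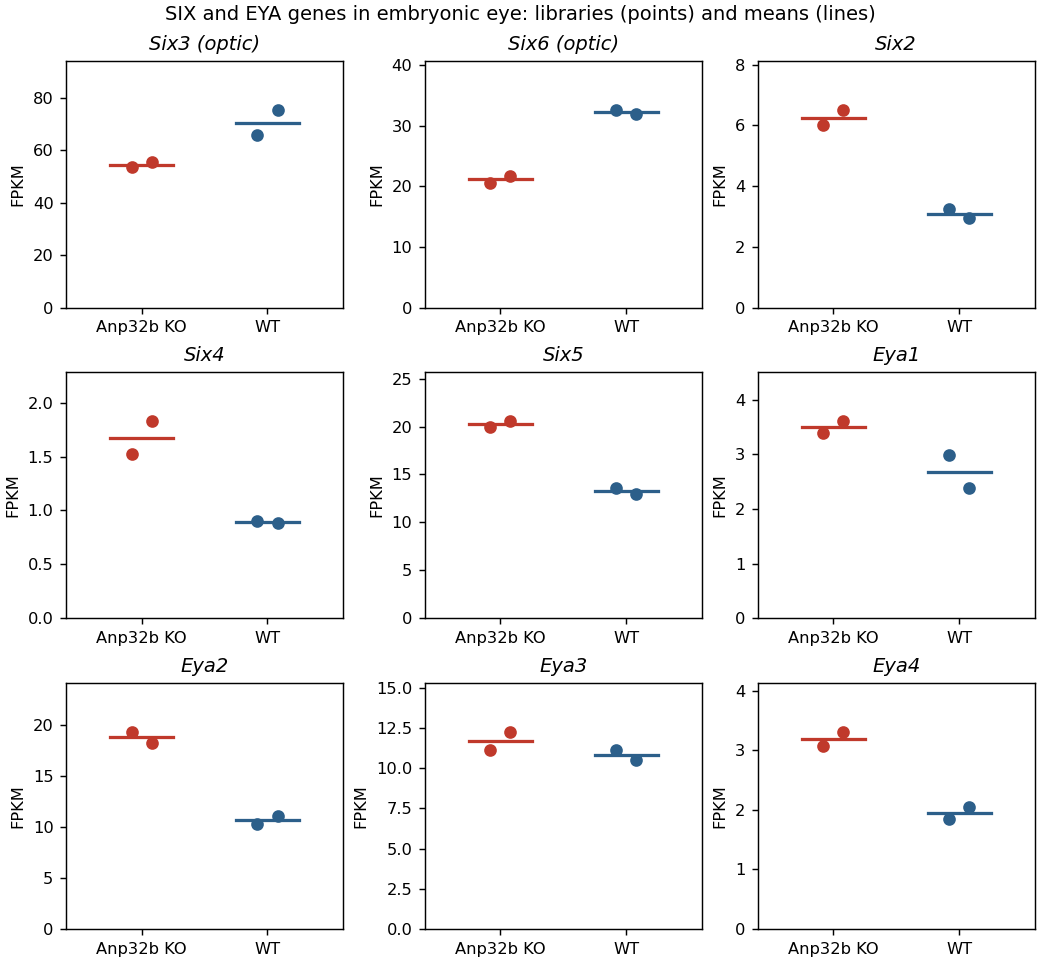
FPKM of each SIX- and EYA-family gene (vertical axes from 0) in Anp32b knockout and wild-type eye libraries, with 1 point per library and a line at the mean of 2. Six3 and Six6 sit lower in the knockout, Eya3 overlaps between the groups, and the other 6 genes sit higher in the knockout.

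Six3 is a homeobox gene of the eye field and anterior forebrain that is required for lens and retina formation. It lies on GRCm38 chromosome 17, positions 85613608 to 85629302, plus strand. Its level was 53.6 and 55.47 FPKM in the knockout libraries, against 65.73 and 75.27 FPKM in the wild-type libraries. The knockout libraries were both lower than the wild-type libraries, which lay further apart from each other than the knockout pair did. With a log2 fold change of −0.36 (SE 0.06, limma adjusted p = 0.00222), the level was 1.29-fold lower. Antisense genes overlap Six3, among them Six3os1, and no source used here states strand-aware counting, so their reads and those of Six3 cannot be told apart.

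Six6, the closest relative of Six3, acts in the optic cup, retina and pituitary and is linked to proliferation of retinal progenitors. It lies on chromosome 12, positions 72939892 to 72944899, plus strand. Six6 had 20.55 and 21.68 FPKM in the knockout libraries, against 32.5 and 31.86 FPKM in the wild-type libraries, with no overlap and a narrow spread in each group. With a log2 fold change of −0.59 (SE 0.04, limma adjusted p = 3.31e-05) the level was 1.52-fold lower, and 2.75% of genes tested had a lower value. The gene on the opposite strand at its 5′ end, 4930447C04Rik (also Six6os1), had 9.11 and 10.42 FPKM in the knockout libraries and 12.66 and 12.58 FPKM in the wild-type libraries (log2 fold change −0.34, limma adjusted p = 0.00382), and the same limit on strand holds. The ratio of Six3 to Six6 was 2.61 and 2.56 in the knockout libraries and 2.02 and 2.36 in the wild-type libraries. With 2 libraries a group an exact two-sided permutation test cannot give less than p = 0.333, which is the value it gave for every within-library ratio reported here.

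Other genes of the optic cup were lower in the same libraries. The sum of 8 retinal markers was 779.8 and 778.9 FPKM in the knockout libraries and 1231 and 1230 FPKM in the wild-type libraries, with 6 of the 8 called lower and 1 higher (21.1% and 33.5% of all genes), and none at 0. Ccnd1, a broadly used cell cycle gene, made up much of this sum, with 378.74 and 374.31 FPKM in the knockout and 703.17 and 711.02 FPKM in the wild type. The other 7 markers summed to 401.1 and 404.6 FPKM in the knockout and 528.1 and 519.0 FPKM in the wild type, 0.77-fold. Relative to Pax6, an eye regulator that was itself lower in the knockout, Six6 stood at 0.191 and 0.195 in the knockout and at 0.202 and 0.201 in the wild type, and Six3 at 0.50 in both knockout libraries and at 0.41 and 0.48 in the wild type. In bulk tissue, fewer cells of a type and less RNA per cell cannot be told apart, and the part of retinal cell number in these falls was not tested. Markers of the forebrain, another site of Six3 expression, summed to 16.2 and 16.9 FPKM in the knockout and to 7.77 and 8.68 FPKM in the wild type, with 3 of 3 tested called higher (33.5% of all genes) and Emx1 under 0.1 FPKM in all libraries.

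Among the other SIX-family genes, Six2 changed most. Six2 (chromosome 17, positions 85684277 to 85688274, minus strand) keeps mesenchymal progenitors undifferentiated, best known in the kidney, and is also used in head mesenchyme. Its level was 6.01 and 6.49 FPKM in the knockout libraries, against 3.23 and 2.95 FPKM in the wild-type libraries, 2.02-fold higher with no overlap (log2 fold change 0.83, SE 0.07, limma adjusted p = 0.0001). Six2 and Six3 are separated by 54975 bases, and the ratio of Six3 to Six2 was 8.92 and 8.55 in the knockout libraries and 20.3 and 25.5 in the wild-type libraries. Srbd1, listed as a further neighbour of this pair, had 9.23 and 9.5 FPKM in the knockout and 10.95 and 9.87 FPKM in the wild type and was not called (log2 fold change −0.14, limma adjusted p = 0.0904), although it was called lower with libraries scaled by median of ratios or without crystallin and erythroid genes, and without wild-type replicate 2 (log2 fold change −0.21).

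Six4, which acts in muscle precursors and placodes, was the least abundant member. It lies on chromosome 12, positions 73099609 to 73113456, minus strand, 154710 bases beyond Six6. The knockout libraries had 1.52 and 1.83 FPKM and the wild-type libraries 0.9 and 0.88 FPKM, with no overlap. Depending on the transcript, the lowest of these values corresponds to about 100 to 107 fragments and the highest to about 209 to 223. It had a log2 fold change of 0.50 (SE 0.10, limma adjusted p = 0.0053), while the ratio of mean FPKM was 1.88, since the added 1 FPKM shrinks changes at low levels. The ratio of Six6 to Six4 was 13.5 and 11.8 in the knockout libraries and 36.1 and 36.2 in the wild-type libraries. Mnat1 and Trmt5, listed as neighbours on chromosome 12, had log2 fold changes of −0.01 and −0.03 and were not called (limma adjusted p = 0.814 and 0.755); the sign of both turned with TPM values and when certain libraries were left out.

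Six5, a broadly expressed member that lies beside the myotonic dystrophy kinase gene Dmpk, had 19.96 and 20.57 FPKM in the knockout libraries, against 13.59 and 12.98 FPKM in the wild-type libraries. The groups did not overlap, with a log2 fold change of 0.57 (SE 0.04, limma adjusted p = 5.23e-05). Six5 lies on chromosome 7, positions 19094594 to 19098549, plus strand, and Dmpk ends 773 bases before it. Dmpk, a gene of striated muscle, had 36.99 and 36.57 FPKM in the knockout and 22 and 21.21 FPKM in the wild type (log2 fold change 0.74, SE 0.04, limma adjusted p = 7.91e-06). Dmwd, on the far side of Dmpk, had 39.48 and 38.47 FPKM in the knockout and 41.24 and 38.19 FPKM in the wild type and overlapped between the groups (log2 fold change −0.03, limma adjusted p = 0.645), with a positive sign under TPM and without wild-type replicate 1. Of this row of neighbours, Six5 and Dmpk were thus called higher and Dmwd was not called.

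The EYA genes were higher in sum, and Eya2 accounted for most of the difference. Eya2 (chromosome 2, positions 165595032 to 165771727, plus strand), a SIX-family coactivator of muscle precursors and placodes, had 19.33 and 18.26 FPKM in the knockout libraries, against 10.32 and 11.07 FPKM in the wild-type libraries. All knockout values exceeded all wild-type values, 1.76-fold in the mean (log2 fold change 0.76, SE 0.05, limma adjusted p = 3.36e-05). Eya4 (chromosome 10, positions 23102963 to 23350786, minus strand), known from human hereditary deafness and heart muscle disease, had 3.08 and 3.31 FPKM in the knockout and 1.85 and 2.05 FPKM in the wild type. This was 1.64-fold higher without overlap (log2 fold change 0.51, SE 0.08, limma adjusted p = 0.00181).

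Eya1 (chromosome 1, positions 14168954 to 14310235, minus strand), the branchio-oto-renal syndrome gene in humans, had 3.4 and 3.61 FPKM in the knockout libraries, against 2.98 and 2.39 FPKM in the wild-type libraries. The groups did not overlap, but the wild-type libraries lay further apart than the knockout libraries. Its log2 fold change of 0.29 (SE 0.10, limma adjusted p = 0.0348) was no longer called with median-of-ratios scaling (adjusted p = 0.0556), with crystallin and erythroid genes left out of the scaling (adjusted p = 0.0742), without a filter (adjusted p = 0.0857), or without knockout replicate 1, knockout replicate 2 or wild-type replicate 2 (adjusted p = 0.108, 0.175 and 0.151). Without wild-type replicate 2 the log2 fold change was 0.178, and over all alternatives adjusted p ran between 0.0113 and 0.175. Eya3 (chromosome 4, positions 132638987 to 132724765, plus strand), the broadly expressed member, had 11.11 and 12.27 FPKM in the knockout and 11.16 and 10.5 FPKM in the wild type, and the groups overlapped. Its log2 fold change was 0.10 (95% confidence interval −0.04 to 0.24, limma adjusted p = 0.199), and it was called higher with TPM (0.22, adjusted p = 0.0209).

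The make-up of each family differed accordingly. The summed level of the 5 SIX-family genes was 101.6 and 106.0 FPKM in the knockout libraries and 116.0 and 123.9 FPKM in the wild-type libraries. Six3 and Six6 contributed 73.0% and 72.8% of that sum in the knockout and 84.7% and 86.4% in the wild type. The summed level of the 4 EYA-family genes was 36.9 and 37.5 FPKM in the knockout and 26.3 and 26.0 FPKM in the wild type. Eya2 made up 52.4% and 48.8% of the EYA sum in the knockout and 39.2% and 42.6% in the wild type. The ratio of Eya2 to Eya3 was 1.74 and 1.49 in the knockout libraries and 0.92 and 1.05 in the wild-type libraries, so the most abundant EYA gene was Eya2 in the knockout while Eya2 and Eya3 overlapped in the wild type.

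**Figure D2:**
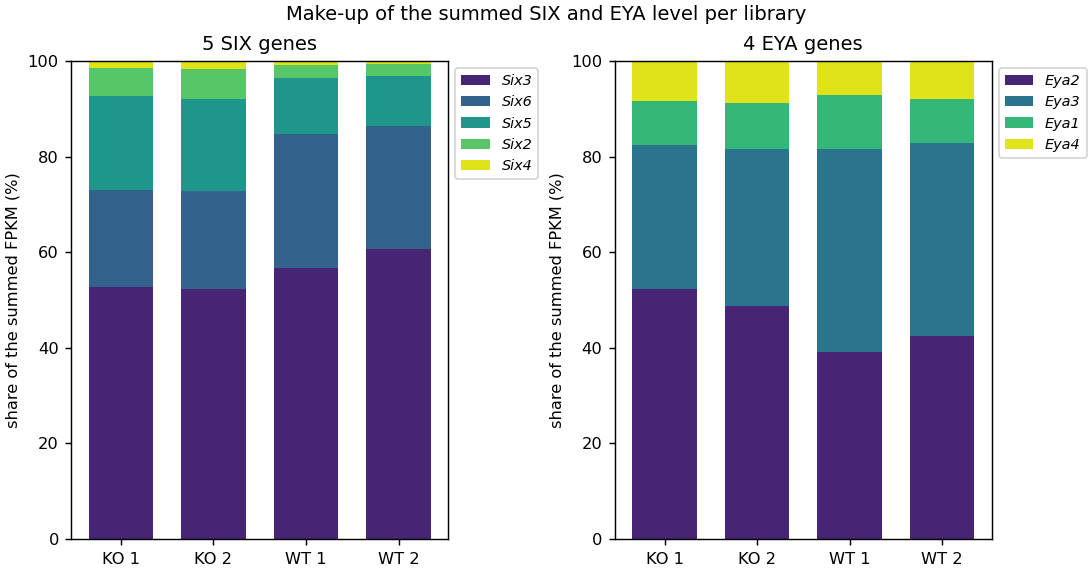
Share of the summed FPKM (vertical axes, percent) held by each of 5 SIX-family genes and each of 4 EYA genes in the 2 knockout and 2 wild-type libraries. Six3 and Six6 together hold 73.0% and 72.8% of the SIX-family sum in the knockout libraries and 84.7% and 86.4% in the wild-type libraries, and Eya2 holds more of the EYA sum in the knockout libraries.

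The order of levels per length was similar in the groups at its top and bottom. In the knockout it ran Six3, Six6, Six5, Eya2, Eya3, Six2, Eya1, Eya4 and Six4, with Six6 and Six5 overlapping between libraries. In the wild type it ran Six3, Six6, Six5, Eya3, Eya2, Six2, Eya1, Eya4 and Six4, with Eya3 overlapping Eya2 and Six2 overlapping Eya1.

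**Figure D3:**
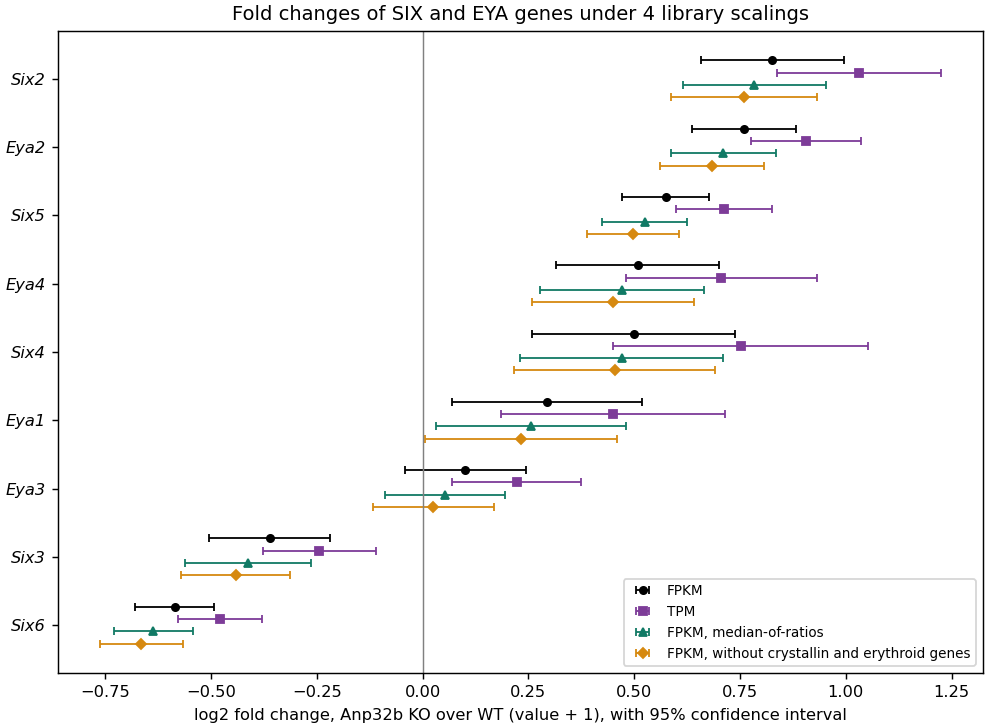
Log2 fold change of each gene (horizontal axis, knockout over wild type, value + 1) with its 95% confidence interval, for FPKM, TPM and FPKM rescaled by median of ratios or without crystallin and erythroid genes. Six3 and Six6 lie below 0 and the other 7 genes above 0 under all 4 scalings, Eya3 nearest to 0.

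The direction of the 9 genes held under each scaling, with the calls of Eya1 and Eya3 changing as given above. The median log2 fold change of the genes tested was 0.16 with TPM and 0.04 with FPKM, and all 9 genes had a higher log2 fold change with TPM. Six6 had log2 fold changes of −0.48 with TPM and −0.66 without crystallin and erythroid genes, and Six2 had 1.03 and 0.76.

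Genes that work with SIX- and EYA-family proteins were read from lists made with earlier results known, and they are described by counts. Of 11 muscle genes linked to SIX- and EYA-family activity and tested, 11 were called higher, against 33.5% of all genes. Pax3, a factor of muscle precursors, passed the filter on low values only through the knockout libraries (1.56 and 1.75 FPKM in the knockout and 0.53 and 0.46 FPKM in the wild type), and Pax7 did not pass. The 10 genes over 1 FPKM in both groups were called higher, with a median log2 fold change of 0.94. Myog, the myogenic factor whose promoter holds a MEF3 site, had 36.98 and 37.1 FPKM in the knockout and 17.79 and 16.7 FPKM in the wild type (1.06). Tnnt3 (1.13), Eno3 (0.80) and Aldoa (0.66), further genes of this list, were also called higher. Of 8 tested mesenchyme genes that act beside Six2 and Eya1, 7 were called higher and 1 lower, against 33.5% and 21.1% of all genes. Osr2 had 35.44 and 36.3 FPKM in the knockout and 17.3 and 16.1 FPKM in the wild type (1.06), and Osr1 (0.93) and Meox1 (0.90) were also called higher. The lower gene was Sall1, a zinc finger partner of Six2 in kidney, with 1.04 and 0.94 FPKM in the knockout and 2.99 and 2.72 FPKM in the wild type (−0.95), and it passed the filter only through the wild-type libraries.

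The markers of these tissues moved alongside. All 10 skeletal muscle markers were called higher, against 33.5% of all genes, and their sum was 2915 and 2946 FPKM in the knockout and 1413 and 1470 FPKM in the wild type, a 2.03-fold difference. All 10 periocular mesenchyme markers were called higher (33.5% of all genes), and their sum was 2999 and 3017 FPKM in the knockout and 1376 and 1354 FPKM in the wild type, 2.20-fold. All 6 markers of surface epithelium and lacrimal gland were called higher as well (33.5% of all genes), with sums of 1110 and 1108 FPKM in the knockout and 543.6 and 566.9 FPKM in the wild type. No marker of these lists was at 0. The linked muscle genes and the muscle markers share 4 genes, the linked mesenchyme genes and the mesenchyme markers 2, and the linked optic genes and the retinal markers 5. The corresponding folds of mean FPKM were 2.02 for Six2, 1.88 for Six4, 1.76 for Eya2, 1.64 for Eya4, 1.53 for Six5 and 1.31 for Eya1. The part of the tissue mix in the higher levels of these 6 genes was not tested. The genes listed as cranial sensory and inner ear markers summed to 2.21 and 2.42 FPKM in the knockout and 3.26 and 4.27 FPKM in the wild type. Atoh1 reached at most 0.03 FPKM. Pou4f3, the 1 gene of this list that was tested, was called lower, with 1.24 and 1.48 FPKM in the knockout and 2.72 and 3.49 FPKM in the wild type. In bulk eye tissue these values do not tell which cells supplied the Pou4f3 reads. The other 3 summed to 0.97 and 0.94 FPKM in the knockout and 0.54 and 0.78 FPKM in the wild type. All 6 lens markers were called lower, against 21.1% of all genes. Their sum was 2048 and 2046 FPKM in the knockout and 20795 and 21247 FPKM in the wild type.

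Optic genes linked to SIX3 and SIX6 went both ways. Of 10 tested, 5 were called lower and 3 higher, against 21.1% and 33.5% of all genes, with a median log2 fold change of −0.08. Pax6 (−0.54), Sox2 (−0.47) and Lhx2 (−0.40), regulators of the neural retina, were among the lower genes. Rax (−0.11) was also called lower, but its sign turned with TPM, and the call was lost without a variance trend and without either of the knockout libraries or wild-type replicate 1. The higher genes were Cdkn1b (0.15), Atoh7 (0.10) and Otx2 (0.09), none of which was called with median-of-ratios scaling, with crystallin and erythroid genes left out of the scaling, or without a variance trend. Atoh7 also lost its call without any 1 of the 4 libraries, Otx2 without each but wild-type replicate 1, and Cdkn1b without each but wild-type replicate 2. Cdkn1b encodes a cell cycle inhibitor described as repressed by SIX6 with DACH proteins, and it had 61.56 and 62.4 FPKM in the knockout and 53.89 and 57.69 FPKM in the wild type. Rax, Cdkn1b, Atoh7, Otx2, Sall1, Tle6, Dach1, Dach2, Ccnd1, Pou4f3, Pax3 and Pax7 were named after their values were seen.

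Of 11 cofactors of the families tested, 2 were called higher and 3 lower, against 33.5% and 21.1% of all genes, with a median of −0.04. Called in either direction, 5 of 11 stood against 54.6% of all genes. Dach2, which was not called, passed the filter on low values only through the knockout (mean 1.13 FPKM, against 0.96 FPKM in the wild type). The 10 cofactors over 1 FPKM in both groups had a median of −0.06. Gmnn, which encodes geminin, a binding partner of SIX3 described in medaka fish, had 26.75 and 26.11 FPKM in the knockout and 40.09 and 39.2 FPKM in the wild type (log2 fold change −0.57, SE 0.03, limma adjusted p = 1.98e-05). Mcrs1 (−0.29) and Tle1 (−0.19) were the other lower genes, Tle1 not with TPM nor without either of the knockout libraries or wild-type replicate 1. The corepressor gene Tle2 was higher, at 14.53 and 15.18 FPKM in the knockout and 8.95 and 7.19 FPKM in the wild type (0.81), as was the divergent Tle6 (0.33), which lost its call without a filter, without knockout replicate 2 and without wild-type replicate 1. Dach1, the dachshund relative, had 19.21 and 18.68 FPKM in the knockout and 20.28 and 19.99 FPKM in the wild type (−0.08, limma adjusted p = 0.103), was called lower under both rescalings of FPKM and had a positive sign with TPM.

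**Figure D4:**
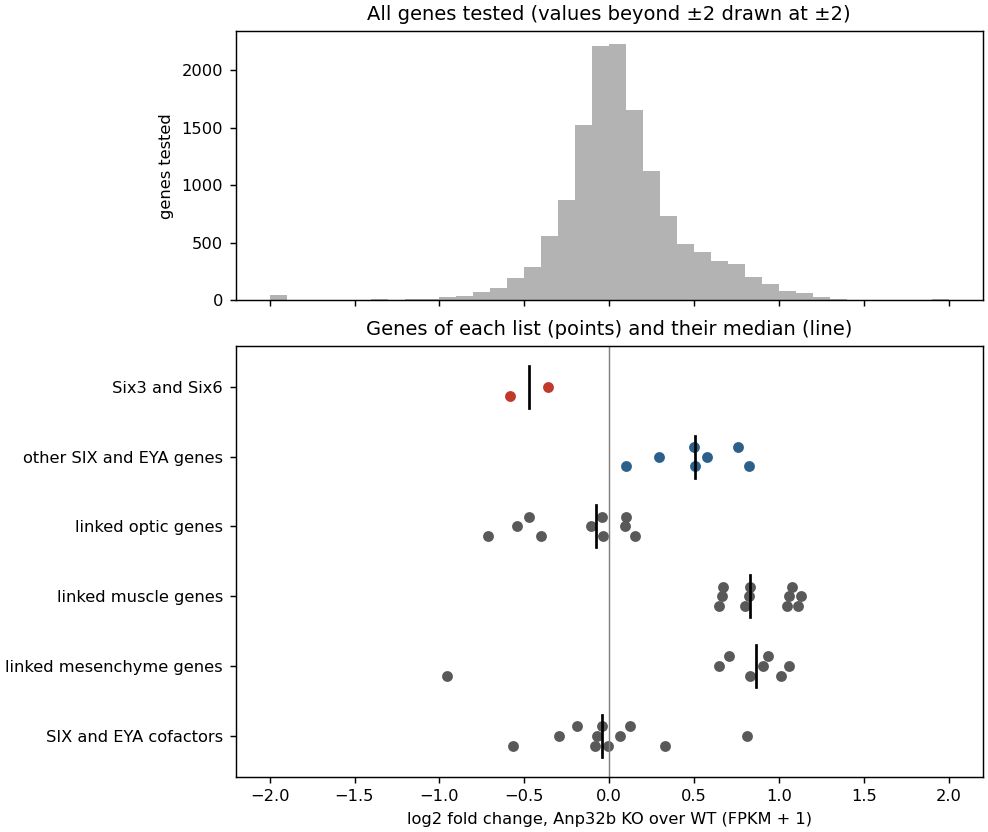
Upper panel, number of genes tested (vertical axis) by log2 fold change of knockout over wild type. Lower panel, the same fold change for Six3 and Six6, the other 7 genes of the families, and 4 lists of linked genes, with points for genes and a line at each median; the linked muscle genes all lie above 0 and the linked optic genes lie on both sides.

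The genes whose profile over the 4 libraries lay closest to that of Six6 and Eya2 were found among 10432 named genes averaging 5 FPKM or more, by Euclidean distance between centred log2(FPKM + 1) values. For Six6 they were Hap1 (distance 0.010), Spag5 (0.017) and Prdm8 (0.030). Spag5, a mitotic spindle gene, had 22.91 and 23.91 FPKM in the knockout and 36.39 and 35.28 FPKM in the wild type. For Eya2 they were Adgre5 (0.015), Hspb2 (0.029) and Esp6 (0.030). Hspb2, a small heat shock protein gene of muscle, had 17.13 and 15.99 FPKM in the knockout and 9.25 and 9.87 FPKM in the wild type. A likeness over 4 libraries of 2 groups is a description of these libraries.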

How the data were processed

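Per the labels' protocols, Trizol-extracted total RNA was used for Illumina libraries. The authors deposited FPKM and TPM values per library, per the file headers, and TPM was a constant multiple of FPKM in each library. HISAT2, Cufflinks, TopHat and DESeq are listed in the submitters' processing notes with no version or role, as are the builds GRCh38 and GRCm38. Annotation, filters and strandedness are not stated. The 9 members and all gene lists were chosen with earlier results of these data known.

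Genes averaging 1 FPKM or more were tested as log2(FPKM + 1), with genotype as the only term and a variance trend, by limma 3.58.1 under R 4.3.3. P-values were two-sided and Benjamini-Hochberg adjusted over all 13887 genes, and the code was tested on simulated data. FPKM is relative to all fragments, so that less of the abundant crystallin transcripts means higher values elsewhere. No read counts are in the tables. The spacing of low FPKM values of single-transcript genes (223 to 247 per library) gave the depth. At that depth 59.7% to 67.3% lay within 0.15 of a whole fragment, too few to recover counts. Chance gives 30.0% for a depth fixed beforehand. The depth was picked for its fit to these same values, so 30.0% is not the chance level after that search. Named genes were the 9 members, Anp32b, Pax6, chromosomal neighbours, up to 4 genes with the lowest p of each linked list, and the 3 nearest profiles of Six6 and Eya2; some named genes are not reported here. Positions are from GENCODE M21 (GRCm38). Alternatives were a pseudocount of 0.1, other filters, TPM, other scalings, no variance trend, the replicate number as a block and the omission of each library. Python 3.11.15 was used with pandas 2.3.3 and matplotlib 3.10.9.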

Additional observations from a re-analysis of the deposited data

How the results depend on the processing

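Of 105 values of the 9 genes under 12 alternatives, 98 kept their direction and their side of the threshold, 6 (all of Eya1) lost the call, 1 (Eya3 with TPM) gained it, and 0 changed sign. Of the 9 genes, 7 to 9 were called under every alternative that tested all of them, and 7 or 8 when 1 library was left out. With at least 5 FPKM in at least 2 libraries only 6 of the 9 were tested and 5 were called, because Six4, Eya1 and Eya4 no longer passed. The difference between Six3 and Six6 and the other genes was −0.982 on the log2 scale, −1.117 with a pseudocount of 0.1, −1.051 without Six5 and Eya3, and −1.045 to −0.920 without 1 library. Over all genes, 5415 to 6225 were called without 1 library and 7586 with all, 61.4% of them higher, against 80.7% with TPM, 50.6% with median-of-ratios scaling and 44.9% when crystallin and erythroid genes were left out of the scaling.

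The fit with replicate number as a block called the same number of members (8) and 7828 genes. The deviations of libraries with the same number correlated at 0.044 over 13887 genes, and with 2 pairs the numbers were not taken to pair the samples. Signs turned for uncalled neighbours and cofactors, and for Rax. With TPM the log2 fold change was 0.033 for Dach1, 0.094 for Dmwd, 0.106 for Mnat1, 0.077 for Trmt5 and 0.011 for Rax. Without 1 library it ran between −0.080 and 0.028 for Dmwd, −0.054 and 0.028 for Mnat1, and −0.157 and 0.089 for Trmt5. The cause was not tested. By their shortest transcripts, the lowest libraries of Six2, Six4, Eya1 and Eya4 held about 94 to 103 fragments, and counting error limits these values.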
